A study of Homo sapiens with 12 samples.

Results

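The genes described here are TGF-beta ligands, receptors and outputs, chosen by name. They comprise the ligands TGFB1, TGFB2 and TGFB3, the receptors TGFBR1, TGFBR2 and TGFBR3, and the outputs SMAD7, INHBA and TGFBI, which are 9 of the 45478 genes counted. All 9 passed the filter on low counts, which left 19929 genes to test. mRNA was sequenced from human clear cell renal cell carcinoma (ccRCC) cell lines in 4 groups of 3 libraries. The parental lines, written 786-O and A498, had no drug selection. The libraries labelled sunitinib-resistant, here resistant 786-O and resistant A498, come from cells of these lines grown in rising concentrations of sunitinib, an inhibitor of VEGF and PDGF receptor tyrosine kinases, until they reached confluence at 4 µM (from 786-O) or 2 µM (from A498), over 4 months or more than 20 passages. The labels give the treatment as none in every group, although every title also carries a code with the letters veh, each resistant group is one selected culture, and nothing states that its replicates were cultured separately, so p-values measure the spread between these libraries, which may be technical. The question was whether the expression of these genes differed between sunitinib-resistant cells and their parental line.

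TGF-beta is secreted in a latent complex and, once released, assembles a pair of kinase receptors on the cell surface. The type II receptor, TGFBR2, binds the ligand and phosphorylates the type I receptor, TGFBR1, which in turn phosphorylates SMAD2 and SMAD3. With SMAD4 these enter the nucleus and bind DNA at SMAD boxes near target genes. The pathway restrains growth of many epithelial cells, while in carcinomas it is known for matrix deposition, epithelial-mesenchymal transition and suppression of T cells.

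Total counts were 40845091 to 47972092 per library in 786-O, 42643735 to 46888482 in resistant 786-O, 21686648 to 34951585 in A498 and 20042519 to 25831163 in resistant A498. No batch label is shared between groups, and batch and group cannot be told apart in any comparison. The libraries labelled resistant A498 went against their label in the genes that separate the lines. Of genes with at least 10 CPM (counts scaled to the normalized library size) in A498 and at most 3 counts in each 786-O library, 61 were found, and the resistant A498 libraries held a median of 0.353% of the A498 level. The 26 genes with the reverse pattern stood at a median of 79.9% of their 786-O level in resistant A498. Values of resistant A498 are therefore given against 786-O as well as against A498. Replicate 2 of resistant 786-O also stood apart. Over 10085 genes, the SD of its log2 deviation from the mean of replicates 1 and 3 was 0.295, against 0.12 between those replicates. The renal markers PAX8, EPAS1 and VEGFA were at 160 to 312 CPM on average in every group, while CA9 and NDUFA4L2 were at most 1.29 CPM. The summed level of 17 T cell markers was 0.763 to 2.19 CPM and that of 8 endothelial markers 0.672 to 3.33 CPM. CD2, CD28 and GZMB were at 0 in every library.

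Promoter sequence is shown for TGFBR3, INHBA and SMAD7. TGFBR3 had the largest change in resistant 786-O minus 786-O and INHBA in resistant A498 minus A498, and SMAD7 is an output that rose in both. Against 786-O, the largest change in resistant A498 was that of TGFBR3 (2.16), and INHBA was at 0.45. The sequences are the 250 bases upstream of the RefSeq start, on GRCh38.p14, 5′ to 3′ on the gene's strand. Capitals mark the SMAD box (CAGAC), the GC box (GGGCGG) and the TATA box (TATAAA), searched on both strands, with no base shared by 2 of these motifs.
TGFBR3, minus strand, chr1:91886152-91886401: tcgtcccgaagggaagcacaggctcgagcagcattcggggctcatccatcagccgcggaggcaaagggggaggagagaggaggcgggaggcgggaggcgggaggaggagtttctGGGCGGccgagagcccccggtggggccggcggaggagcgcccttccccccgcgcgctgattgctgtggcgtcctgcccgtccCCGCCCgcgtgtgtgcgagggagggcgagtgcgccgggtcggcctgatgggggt
INHBA, minus strand, chr7:41703091-41703340: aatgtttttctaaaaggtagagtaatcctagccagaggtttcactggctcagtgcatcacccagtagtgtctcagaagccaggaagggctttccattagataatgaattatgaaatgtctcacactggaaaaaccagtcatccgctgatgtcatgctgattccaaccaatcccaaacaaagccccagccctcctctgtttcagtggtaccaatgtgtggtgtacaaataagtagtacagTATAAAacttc
SMAD7, minus strand, chr18:48950966-48951215: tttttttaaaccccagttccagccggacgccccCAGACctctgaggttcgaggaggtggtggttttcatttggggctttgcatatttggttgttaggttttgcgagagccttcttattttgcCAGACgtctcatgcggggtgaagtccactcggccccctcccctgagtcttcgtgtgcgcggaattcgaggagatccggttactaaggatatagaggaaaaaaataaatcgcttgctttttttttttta

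The TGFBR3 sequence was 73.6% G or C with 28 CpG dinucleotides and 2 GC boxes. The INHBA sequence was 42.8% G or C with 1 CpG and a TATA box close to the start. In SMAD7 the SMAD box occurred 2 times. Among the 9 members the SMAD box was in 4 (TGFB2, TGFB3, TGFBR1 and SMAD7), against 37.8% of 27305 promoters of the same length. The GC box was in 4 of the 9, against 42.3%, and the TATA box in 2 (TGFB2 and INHBA), against 11.1%. The palindromic SMAD element GTCTAGAC, in 0.176% of all promoters, and the AP-1 motif TGANTCA, in 6.6%, were in none of the 9. A match is a description of the letters in this window. The RefSeq start used for TGFBR3 lies 20184 bases, and that for INHBA 2744 bases, from the gene's outermost start in GENCODE.

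The ligands differed from each other in direction. TGFB1 rose in both resistant groups, TGFB2 rose in resistant A498 and was not called in resistant 786-O, and TGFB3, present at 2.46 CPM or less, fell in both. TGFB1 (chr19:41301587-41353922, on GRCh38 as are all positions here), the isoform made by most cells, was at 147, 140 and 138 CPM in 786-O and at 197, 147 and 212 CPM in resistant 786-O replicates 1 to 3. The resistant 786-O libraries were all above the 786-O libraries, replicate 2 only just. In A498 it was at 83.2, 85.9 and 88.9 CPM, and in resistant A498 at 152, 178 and 179 CPM, with no overlap. The log2 fold change was 0.38 (SE 0.10, edgeR quasi-likelihood test, adjusted p = 0.0033) in resistant 786-O, or 1.31-fold, and 0.98 (SE 0.10, adjusted p = 5.3e-07) in resistant A498, or 1.97-fold. TGFB1 has the highest GC content of the 9, 63.6%, and with the trend of fold change with GC content and gene length removed its value in resistant 786-O was -0.03 (adjusted p = 0.81), which ended that call.

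TGFB2 (chr1:218345336-218444619), the isoform that depends most on the coreceptor TGFBR3 for binding, was at 100, 98.7 and 97.6 CPM in 786-O and at 101, 65.8 and 103 CPM in resistant 786-O. Replicates 1 and 3 of resistant 786-O were just above the 786-O libraries and replicate 2 was well below them. The difference was not called (log2 fold change -0.14, SE 0.11, adjusted p = 0.30), and without replicate 2 it was 0.04 (adjusted p = 0.33). The A498 libraries were at 63.6, 65.2 and 66.7 CPM and the resistant A498 libraries at 147, 152 and 147 CPM, the highest of the 4 groups. That rise was 1.19 on the log2 scale (SE 0.12, adjusted p = 2.7e-07), or 2.28-fold.

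TGFB3 (chr14:75958097-75983011) was at 1.18, 1.01 and 0.976 CPM in 786-O and 0.735, 0.71 and 0.656 CPM in resistant 786-O. It was at 2.46, 2.14 and 2.46 CPM in A498 and 0.82, 0.67 and 0.626 CPM in resistant A498. Neither pair of groups overlapped, although the values rest on 14 to 85 counts per library. It fell by 0.59 on the log2 scale (SE 0.17, adjusted p = 0.0076) in resistant 786-O and by 1.73 (SE 0.18, adjusted p = 5.5e-07), or 3.33-fold, in resistant A498. With every library thinned to the smallest, the change in resistant 786-O was -0.41 (adjusted p = 0.18).

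**Figure D1:**
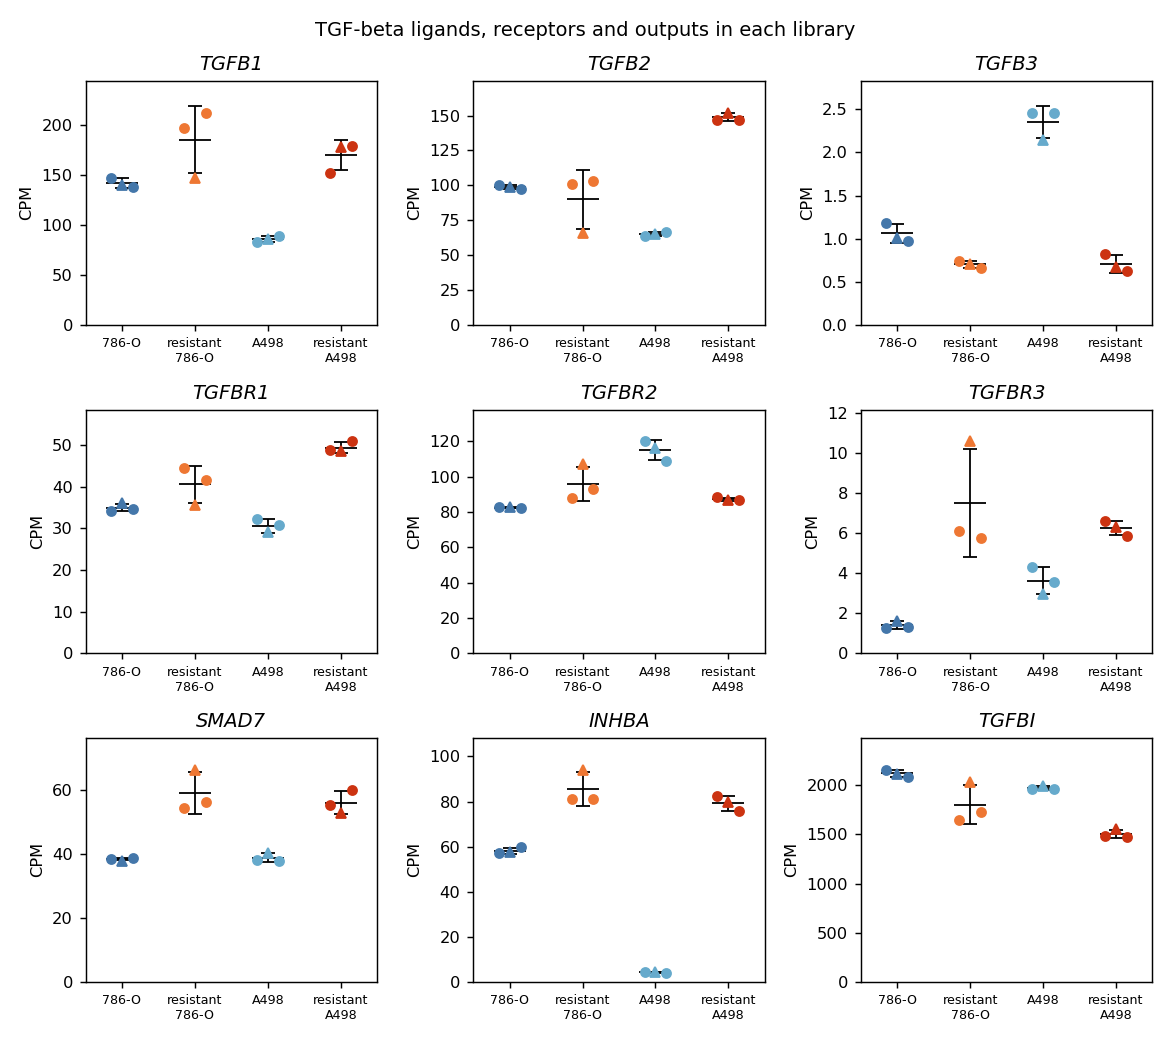
Normalized level (CPM, linear axis from 0) of each gene in the 12 libraries. Points are single libraries, triangles are replicate 2 of each group, and bars show the mean ± SD of 3 libraries. INHBA in A498 is at 3.86 to 4.42 CPM while the other groups are at 57.1 CPM or more, and the triangle of resistant 786-O is apart from both circles for most genes.

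Both signalling receptors changed by less than 2-fold. TGFBR1 rose in both resistant groups, TGFBR2 rose in resistant 786-O and fell in resistant A498, and TGFBR3 rose 5.33-fold in resistant 786-O. TGFBR1 (chr9:99104038-99154192), the type I receptor kinase, was at 34.2, 36.0 and 34.7 CPM in 786-O and 44.4, 35.7 and 41.7 CPM in resistant 786-O. These groups overlapped, because resistant 786-O replicate 2 lay within the 786-O values. The log2 fold change was 0.22 (SE 0.07, adjusted p = 0.013), and 0.30 (adjusted p = 2e-06) without that replicate. In A498 it was at 32.2, 29.0 and 30.7 CPM and in resistant A498 at 48.7, 48.6 and 50.9 CPM, with no overlap and a log2 fold change of 0.69 (SE 0.07, adjusted p = 6.1e-07).

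TGFBR2 (chr3:30606601-30694142), the ligand-binding type II receptor kinase, was at 82.8, 82.7 and 82.1 CPM in 786-O and 88.0, 107 and 93.2 CPM in resistant 786-O. All resistant 786-O libraries were higher, by 0.22 on the log2 scale (SE 0.06, adjusted p = 0.0058), and by 0.13 (adjusted p = 0.0058) without replicate 2. In A498 it was at 120, 116 and 109 CPM, and in resistant A498 at 88.3, 86.8 and 86.9 CPM. All resistant A498 libraries were lower (log2 fold change -0.40, SE 0.06, adjusted p = 3.8e-05). It was the only member called in opposite directions, and the difference between the changes was -0.62 (SE 0.09, adjusted p = 1.7e-05). Against 786-O, TGFBR2 in resistant A498 was at 0.08 without a call (SE 0.06, adjusted p = 0.27).

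TGFBR3 (chr1:91680343-91906335), or betaglycan, has no kinase and presents TGF-beta to the type II receptor. It was at 1.24, 1.63 and 1.33 CPM in 786-O and 6.09, 10.6 and 5.77 CPM in resistant 786-O. In A498 it was at 4.31, 2.98 and 3.57 CPM, and in resistant A498 at 6.6, 6.32 and 5.87 CPM. Neither pair of groups overlapped, and resistant 786-O replicate 2 was the highest of the 12 libraries. The log2 fold change was 2.42 (SE 0.23, adjusted p = 2.3e-07) in resistant 786-O and 0.77 (SE 0.22, adjusted p = 0.0059) in resistant A498. Without resistant 786-O replicate 2 the first was 2.08 (adjusted p = 1.1e-15), and with the GC and length trend removed the second was 0.52 (adjusted p = 0.053), which ended that call.

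Among the outputs, SMAD7 and INHBA rose and TGFBI fell in both resistant groups. SMAD7 (chr18:48919853-48950965) is an inhibitory SMAD that blocks the type I receptor and is itself induced by SMAD3. It was at 38.6, 38.0 and 38.7 CPM in 786-O and 54.5, 66.5 and 56.4 CPM in resistant 786-O. In A498 it was at 38.3, 40.5 and 37.9 CPM and in resistant A498 at 55.4, 53.0 and 60.1 CPM. The parental groups overlapped each other, as did the resistant groups, and every resistant library was above every parental one. The log2 fold change was 0.62 (SE 0.07, adjusted p = 1.6e-06) in resistant 786-O and 0.53 (SE 0.07, adjusted p = 9e-06) in resistant A498. Their difference was -0.09 (SE 0.10, adjusted p = 0.45), but 0.37 (adjusted p = 0.0025) with the GC and length trend removed.

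INHBA (chr7:41667168-41705834) encodes the beta A subunit that forms activin A, a ligand which signals through its own receptors to SMAD2 and SMAD3. The 786-O libraries were at 57.1, 57.7 and 59.7 CPM and the resistant 786-O libraries at 81.2, 94.1 and 81.3 CPM. The A498 libraries were at 4.23, 4.42 and 3.86 CPM and the resistant A498 libraries at 82.3, 79.7 and 75.7 CPM. A498 stood far below the other 3 groups. The rise was 0.56 on the log2 scale (SE 0.06, adjusted p = 1.2e-06), or 1.47-fold, in resistant 786-O, and 4.25 (SE 0.08, adjusted p = 2.1e-15), or 19.0-fold, in resistant A498. Parental 786-O exceeded parental A498 by 3.81 (SE 0.08, adjusted p = 4.4e-15), so against 786-O the resistant A498 libraries differed by 0.45 (SE 0.06, adjusted p = 1.4e-05), or 1.36-fold.

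TGFBI (chr5:136028988-136063818), a secreted matrix protein that binds integrins and was named for its induction by TGF-beta, was at 2159, 2117 and 2087 CPM in 786-O and 1648, 2034 and 1732 CPM in resistant 786-O. It was at 1961, 1994 and 1962 CPM in A498 and 1486, 1551 and 1476 CPM in resistant A498. Each resistant group was below its parental group, with resistant 786-O replicate 2 nearest to it. The log2 fold change was -0.23 (SE 0.06, adjusted p = 0.0035) in resistant 786-O and -0.39 (SE 0.06, adjusted p = 3.8e-05) in resistant A498. Scaling by library size alone moved the median of all genes in resistant 786-O minus 786-O from 0.03 to 0.18, and the value of TGFBI there to -0.09 (adjusted p = 0.17). With the 786-O and resistant 786-O libraries fitted alone it was -0.20 (adjusted p = 0.056).

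**Figure D2:**
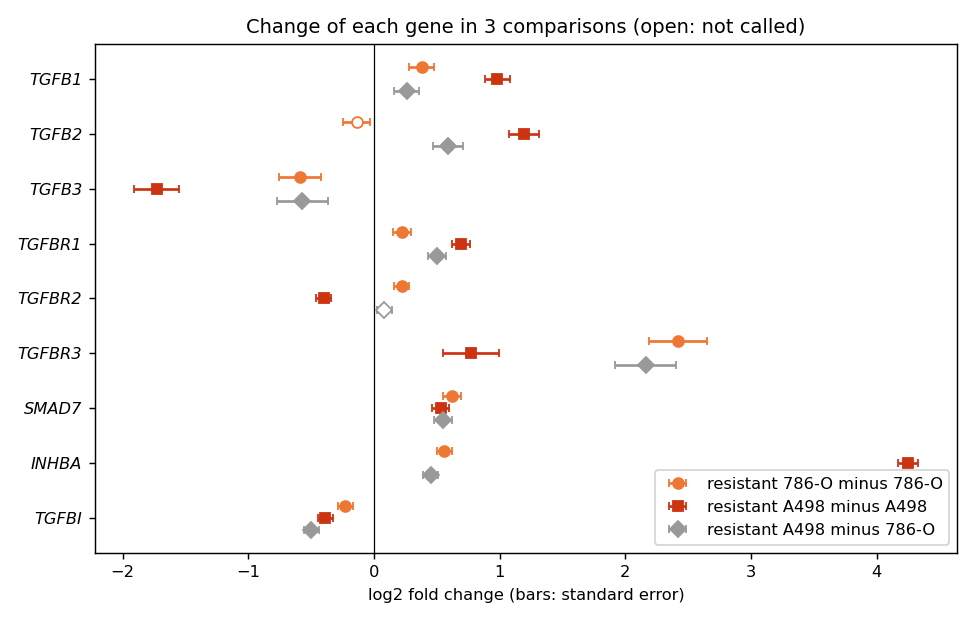
Log2 fold change (edgeR, bars are standard errors) of each gene in resistant 786-O minus 786-O (circles), resistant A498 minus A498 (squares) and resistant A498 minus 786-O (diamonds). Filled symbols were called at an adjusted p under 0.05. INHBA moves from 4.25 against A498 to 0.45 against 786-O, and TGFBR2 lies on opposite sides of 0 in the first 2 comparisons.

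In resistant 786-O minus 786-O, 6 of the 9 members were called higher, against 35.0% of all genes tested, and 2 lower, against 33.5%. Their median log2 fold change was 0.22, and 0.03 over all genes. In resistant A498 minus A498, 6 were called higher, against 36.3% of all genes, and 3 lower, against 36.4%, with a median of 0.69, and 0 over all genes. Libraries did not overlap for 7 of the 9 in the first comparison, against 68.9% of all genes, and for all 9 in the second, against 78.5%. Of the 9, 5 were called higher in both (TGFB1, TGFBR1, TGFBR3, SMAD7 and INHBA), against 15.2% of all genes, 2 lower in both (TGFB3 and TGFBI), against 14.3%, and 1 in opposite directions (TGFBR2), against 21.7%. A difference between the cell lines in the change itself was called for 7 members, or 77.8%, against 68.3% of all genes, and not for SMAD7 and TGFBI. By definition it equals resistant A498 minus resistant 786-O plus 786-O minus A498. Since the libraries labelled resistant A498 went against their label, it cannot be told apart from the difference between the parental lines. In bulk RNA, fewer cells that express a gene and less RNA per cell cannot be told apart.

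Between the parental lines, in 786-O minus A498, 4 members were called higher (INHBA, TGFB1, TGFB2 and TGFBR1) and 3 lower (TGFBR3, TGFB3 and TGFBR2), against 38.2% and 36.1% of all genes. The call of TGFBR1 there (0.19, SE 0.07, adjusted p = 0.03) was lost with DESeq2 (0.13, adjusted p = 0.13) and with the GC and length trend removed (-0.08, adjusted p = 0.29). In resistant A498 minus 786-O, 6 were called higher, against 31.6%, and 2 lower, against 32.1%. The values there were 2.16 for TGFBR3, 0.59 for TGFB2, 0.55 for SMAD7, 0.50 for TGFBR1, 0.45 for INHBA and 0.26 for TGFB1, and -0.57 for TGFB3 and -0.50 for TGFBI. TGFBR2 was not called (0.08, SE 0.06, adjusted p = 0.27). For TGFB1 (adjusted p = 0.037) the call was lost when any one of 8 libraries was left out, with adjusted p from 0.051 to 0.10, and for TGFB3 (adjusted p = 0.024) when 786-O replicate 1 or resistant A498 replicate 2 or 3 was left out, with adjusted p from 0.081 to 0.13. DESeq2 gave TGFB3 an adjusted p of 0.1 (-0.54), library size scaling 0.11 (-0.42) and no filter 0.08 (-0.58). The call of TGFB1 was also lost with the GC and length trend removed (0.15, adjusted p = 0.18). Between the resistant groups, in resistant A498 minus resistant 786-O, TGFB2 (0.72, SE 0.12, adjusted p = 0.00014) and TGFBR1 (0.28, SE 0.07, adjusted p = 0.0046) were higher and TGFBI lower (-0.26, SE 0.06, adjusted p = 0.0028). With the GC and length trend removed, the call of TGFBR1 ended (-0.02, adjusted p = 0.88), and INHBA (-0.40, adjusted p = 0.00013) and TGFBR2 (-0.31, adjusted p = 0.0011) were called lower. Without that removal, 2 of 9 were higher, against 23.0% of all genes, and 1 of 9 lower, against 23.0%. These comparisons share libraries with the first pair and are given side by side.

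Per kilobase of exon, a scale on which genes can be compared within a group, TGFBI was far the most abundant, at a mean of 195 to 275 CPM per kb. TGFB1 was next in every group, at 26.3 to 56.7 CPM per kb. TGFB2 was at 10.8 to 24.6, TGFBR2 at 12.1 to 16.8, SMAD7 at 9.74 to 15 and TGFBR1 at 3.83 to 6.18 CPM per kb. INHBA spanned 0.503 to 10.3 CPM per kb. TGFB3, at 0.134 to 0.451, and TGFBR3, at 0.163 to 0.873 CPM per kb, were the least abundant in resistant 786-O, resistant A498 and 786-O, and in A498 INHBA was close to them.

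Replicate 2 of resistant 786-O was the lowest or the highest library of its group in 8 of the 9 members, a count given without the share of all genes. It was below both for TGFB2, TGFB1 and TGFBR1, at 0.645, 0.722 and 0.828 times their mean. It was above both for TGFBR3, at 1.79 times, and for SMAD7, TGFBI, TGFBR2 and INHBA, at 1.16 to 1.2 times. Without this library the members called in resistant 786-O were again 6 higher and 2 lower, with TGFB1 at 0.52 (adjusted p = 1e-11), SMAD7 at 0.53 (adjusted p = 8.6e-12), INHBA at 0.48 (adjusted p = 6.3e-12) and TGFBI at -0.33 (adjusted p = 1.2e-09). TGFB1 was then also called lower in resistant A498 than in resistant 786-O, with a log2 fold change of -0.27 (adjusted p = 2.1e-05), against -0.13 (adjusted p = 0.32) with it.

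**Figure D3:**
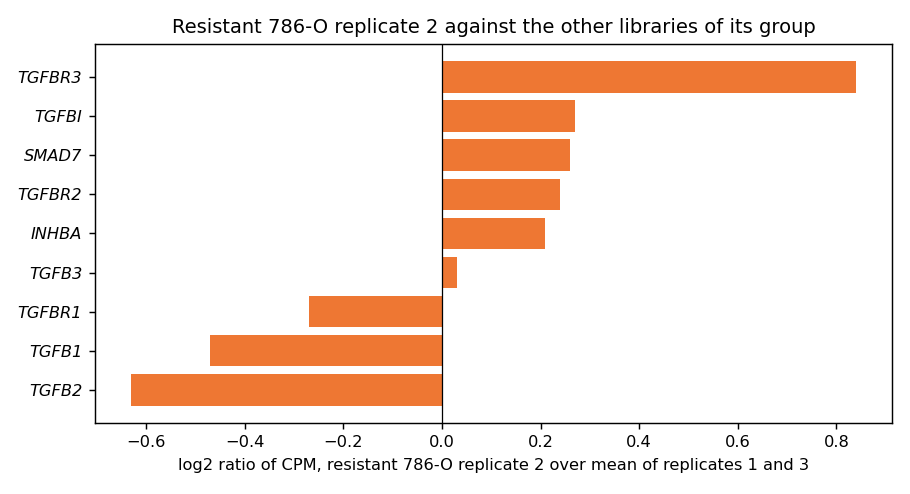
Log2 ratio of the CPM in resistant 786-O replicate 2 to the mean of resistant 786-O replicates 1 and 3, 1 bar per gene. Bars to the right are higher in replicate 2, up to 0.84 for TGFBR3, and bars to the left lower, down to -0.63 for TGFB2.

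The other genes of the pathway were described in 4 lists, with changes given for resistant 786-O, then resistant A498 against A498 and, where so stated, against 786-O. Their counts are to be read against the shares of all genes called, which were 35.0% higher and 33.5% lower in resistant 786-O, 36.3% and 36.4% in resistant A498 against A498, and 31.6% and 32.1% against 786-O. Of genes for latency and activation, 14 of 16 were tested. In resistant 786-O 7 rose and 3 fell, with a median of 0.22, and in resistant A498 4 rose and 10 fell, with a median of -1.20. Against 786-O, the resistant A498 libraries were called higher for 7 and lower for 3, with a median of 0.22. LTBP1, LTBP3 and LTBP4 encode binding proteins that tether latent TGF-beta to the matrix. LTBP3 went from 14.8 to 15.6 CPM in 786-O to 42.8 to 45.6 CPM in resistant 786-O (log2 fold change 1.54, SE 0.06, adjusted p = 2.5e-11), and from 121 to 134 CPM in A498 to 44 to 50.9 CPM in resistant A498 (-1.41, SE 0.06, adjusted p = 1.4e-11). LTBP4 was not called in resistant 786-O (0.05, adjusted p = 0.55) and changed by -3.10 in resistant A498 (SE 0.07, adjusted p = 2.1e-14), and LTBP1 changed by 0.91 and -3.84. The call of LTBP1 in resistant 786-O, at 0.939 to 1.22 CPM, was lost with the libraries thinned (0.56, adjusted p = 0.08), and LTBP4 there was at -0.57 (adjusted p = 1.3e-07) with the GC and length trend removed. Against 786-O, resistant A498 was higher for LTBP1 (1.01) and LTBP3 (1.65) and lower for LTBP4 (-1.25). ITGB8, the integrin subunit that frees latent TGF-beta, was at 13.7 to 14.2 CPM in A498 and 121 to 134 CPM in resistant A498 (3.20, SE 0.15, adjusted p = 3.4e-11), while 786-O held 56.5 to 66.8 CPM (1.05 against 786-O, adjusted p = 3.8e-06). FURIN, the protease that cleaves the TGF-beta precursor, rose by 0.57 (adjusted p = 1.3e-07) and 1.52 (adjusted p = 1.7e-12). THBS1, thrombospondin, an activator of the latent complex, changed by -0.44 and 2.06, and MMP14, a membrane protease, by -0.49 and -0.99. FBN1, the fibrillin to which the LTBPs attach, changed by 0.94 and -1.49. Against 786-O the values were 0.14 for FURIN, -0.27 for THBS1 and -1.19 for MMP14, and 0.03 without a call for FBN1 (adjusted p = 0.85).

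All 25 SMADs, coreceptors and pathway regulators were tested. In resistant 786-O 6 rose and 14 fell, with a median of -0.26, and in resistant A498 12 rose and 9 fell, with a median of 0.17. Against 786-O, the resistant A498 libraries were called higher for 8 and lower for 9, with a median of -0.01. The receptor-activated SMAD2 was at 54.7 to 59.1 CPM in 786-O and 47.1 to 49.2 CPM in resistant 786-O (-0.26, SE 0.05, adjusted p = 0.0002), and rose in resistant A498 by 0.70 (SE 0.05, adjusted p = 6.4e-09). SMAD3 fell in both, by 0.29 (adjusted p = 0.00041) and 0.89 (adjusted p = 2.1e-09). SMAD4, the shared partner, was at 40.1 to 42.2 CPM in 786-O and 26.4 to 28.5 CPM in resistant 786-O (-0.58, adjusted p = 1.4e-07), and changed by 0.70 in resistant A498. Against 786-O, resistant A498 differed by 0.11, -0.08 and 0.01 for SMAD2, SMAD3 and SMAD4, none of them called. SMAD6, the inhibitory SMAD of the BMP branch, rose from 9.67 to 10.6 CPM to 44.6 to 49.6 CPM in resistant 786-O (2.17, SE 0.07, adjusted p = 1.1e-12). In resistant A498 against A498, SMAD6 was called lower (-0.19, SE 0.06, adjusted p = 0.013). Among other alternatives, that call was lost with library size scaling (-0.12, adjusted p = 0.088) and with the GC and length trend removed (0.06, adjusted p = 0.35). PMEPA1, a feedback inhibitor that sequesters receptor-activated SMADs, fell by 0.60 (adjusted p = 0.00062) and 1.33 (adjusted p = 2e-07). BAMBI, a decoy receptor, rose by 0.49 and 1.04. STRAP, which works with SMAD7, fell by 1.07 and 0.43. The ubiquitin ligases SMURF2 and NEDD4L changed by -0.91 and -0.32 in resistant 786-O, where USP15, a deubiquitinase of the receptor, changed by -0.98. In resistant A498 NEDD4L rose by 1.71, SMURF2 and USP15 were not called (0.17 and -0.12), and the corepressor TGIF2 changed by 2.72, against -0.67 in resistant 786-O. USP15 in resistant A498 was at -0.46 (adjusted p = 4.6e-05) with the GC and length trend removed. SMURF2 in resistant A498 was at 0.24 (adjusted p = 0.018) with library size scaling. Against 786-O, resistant A498 was at 1.71 for SMAD6, -1.36 for PMEPA1, -0.99 for STRAP, -0.94 for SMURF2, -0.87 for USP15 and -0.19 for TGIF2, and at 0.09 for NEDD4L and -0.06 for BAMBI without a call.

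Of 30 other genes listed as responsive to TGF-beta, 26 were tested. Whether TGF-beta induces each of them in these cells was not tested. In resistant 786-O 13 rose and 8 fell, with a median of 0.20, and in resistant A498 11 rose and 14 fell, with a median of -0.34. Against 786-O, the resistant A498 libraries were called higher for 8 and lower for 12, with a median of -0.09. CCN2, a matricellular protein, was at 29.3 to 31.4 CPM in 786-O, 65.9 to 87.2 in resistant 786-O, 15.1 to 18.4 in A498 and 63.1 to 68.6 in resistant A498 (1.28 and 1.98, SE 0.09 and 0.10, adjusted p = 1.3e-08 and 1.2e-10). ID2, an inhibitor of helix-loop-helix factors, rose by 1.20 and 3.89, and TAGLN, an actin-binding protein of smooth muscle, by 1.98 and 3.17. LOX, which cross-links collagen, was at 9.78 to 10.6 CPM in 786-O and 16.8 to 17.9 CPM in A498, and at 0.531 to 1.28 CPM in resistant 786-O and 0.587 to 0.671 CPM in resistant A498. It changed by -3.62 (SE 0.18, adjusted p = 2.3e-10) and -4.79 (SE 0.21, adjusted p = 2.1e-11). FN1, fibronectin, went from 7048 to 8115 CPM to 1864 to 2978 CPM in resistant 786-O (-1.71, SE 0.12, adjusted p = 1.2e-08), and from 668 to 725 CPM to 2643 to 2954 CPM in resistant A498 (2.01, SE 0.12, adjusted p = 1.1e-09). The collagen gene COL1A1 changed by 0.49 and -3.90, and RHOB, a small GTPase, by 1.91 and -1.43. With the GC and length trend removed, COL1A1 in resistant 786-O was at 0.07 (adjusted p = 0.56), which ended that call. Against 786-O, resistant A498 was lower for FN1 (-1.45, SE 0.12, adjusted p = 7.4e-08) and LOX (-4.00) and higher for RHOB (1.68), COL1A1 (0.72), CCN2 (1.12), ID2 (1.53) and TAGLN (1.78), so that FN1, RHOB and COL1A1 turn direction with the reference. POSTN, periostin, was at 5.44 to 6.28 CPM in A498 and at most 0.241 CPM elsewhere.

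Of 25 activin and BMP relatives, 22 were tested. In resistant 786-O 10 rose and 7 fell, with a median of 0.12, and in resistant A498 11 rose and 6 fell, with a median of 0.07. Against 786-O, the resistant A498 libraries were called higher for 12 and lower for 7, with a median of 0.46. INHBB, which encodes another activin beta subunit, fell in both resistant groups, where INHBA rose. It was at 45.4 to 46.9 CPM in 786-O and 3.41 to 4.18 CPM in resistant 786-O, and at 153 to 160 CPM in A498 and 4.55 to 4.88 CPM in resistant A498. It changed by -3.63 (SE 0.07, adjusted p = 5.7e-15) and -5.04 (SE 0.07, adjusted p = 6.4e-17). GDF15, a stress-induced cytokine of the family, was at 36.1 to 41.7 CPM in 786-O and 138, 311 and 157 CPM in resistant 786-O (2.40, SE 0.22, adjusted p = 1.8e-07), and changed by -1.55 in resistant A498. SMAD9, a BMP-branch SMAD, rose by 1.21 and 1.61. BMP6 fell by 1.32 in resistant 786-O, its value in resistant A498 was -0.14 without a call (adjusted p = 0.058), and BMPR1B, a type I BMP receptor, changed by -1.50 and 2.05. ACVR2B, an activin type II receptor, was at 4.47 to 5.09 CPM in resistant 786-O and 4.61 to 4.97 CPM in 786-O (-0.02, adjusted p = 0.92), and rose by 1.86 in resistant A498 (SE 0.15, adjusted p = 1.7e-08). Against 786-O, resistant A498 was at -3.27 for INHBB, 2.32 for GDF15, 1.55 for SMAD9, -0.92 for BMP6, -0.94 for BMPR1B and 0.58 for ACVR2B, so that GDF15 and BMPR1B turn direction with the reference.

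**Figure D4:**
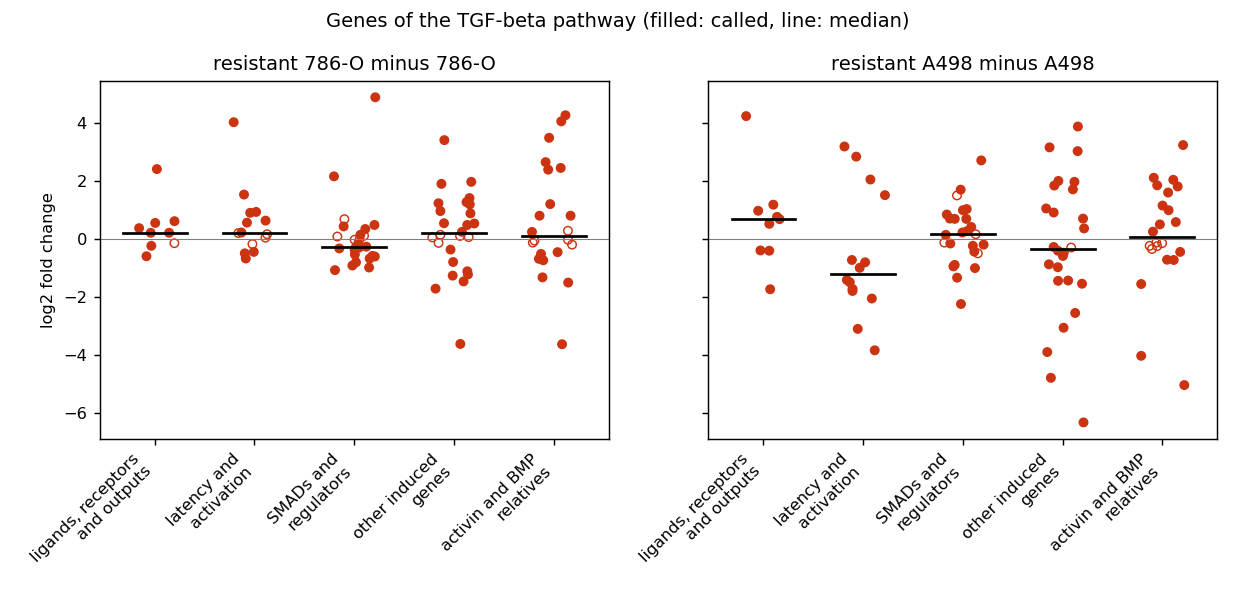
Log2 fold change of every tested gene of each list in resistant 786-O minus 786-O (left) and resistant A498 minus A498 (right). Filled points were called, open points were not, and the line is the list's median. The latency and activation genes have a median of 0.22 on the left and -1.20 on the right, where against 786-O it would be 0.22.

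The gene whose log2 CPM was most like each member over the 12 libraries, among those with a mean of at least 5 CPM, is given by Pearson's r, as a description of libraries that fall into 4 groups. For the ligands it was MYO9B with TGFB1 (r = 0.994), PSIP1 with TGFB2 (0.991) and TPD52L1 with TGFB3 (0.993). For the receptors it was SEMA3B with TGFBR1 (0.986), ZNF324 with TGFBR2 (0.976) and PSMB8 with TGFBR3 (0.987). For the outputs it was SPINK1 with SMAD7 (0.984), TCEAL3 with INHBA (0.998) and ADAMTS16 with TGFBI (0.992). SPINK1 was at a mean of 0.697 CPM in 786-O and 0.689 CPM in A498 and at 49.0 CPM in resistant 786-O and 28.7 CPM in resistant A498, a far wider range than SMAD7.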

How the data were processed

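The authors trimmed reads of stranded mRNA libraries with Trimmomatic 0.36.6, aligned them to GRCh38 with HISAT2 2.1.0 and counted sense reads over exons of GENCODE 33 genes with featureCounts 1.6.3. They deposited raw counts, without normalization. Antisense genes at TGFB1, TGFB2, TGFB3 and INHBA were thus counted apart. TGFB2-OT1, which shares 1371 exon bases with TGFB2 on the same strand, was not analysed here.

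Tests were run with edgeR 4.0.16 under R 4.3.3. Genes were filtered with filterByExpr and normalized by TMM, and 1 quasi-likelihood model with 4 group means was fitted to the 12 libraries. Benjamini-Hochberg adjustment covered all 19929 genes, and an adjusted p under 0.05 was called. Log2 fold changes use a prior count of 0.125. Correlations used log2 CPM with a prior count of 2. Counts were also simulated for resistant 786-O minus 786-O, with independent replicates, and 196 of the 19122 genes tested were changed 2-fold. Of these, 149 were recovered, among them 139 of the 143 with a mean of at least 1 CPM. Among the unchanged genes, 10 were called. The simulation held far fewer changed genes than the data and no library that stood apart, so it checks the code and not these calls. The study's own test of raw counts was not used, since depth differed between libraries.

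The members and lists were chosen with earlier results of these data known. All members are described. From each list, up to 4 genes per comparison were named, with the largest called change, libraries that did not overlap and at least 5 CPM in the higher group. SMAD2, SMAD3, SMAD4 and CCN2 were named whatever their values, and 1 further gene of this kind is not reported here. Alternatives were library size scaling, DESeq2 1.42.0, no filter, at least 10 counts in every library, the compared groups alone, a replicate block, thinning, removal of the GC and length trend (a spline), an absolute log2 fold change over 1, and each library left out. Positions are from GENCODE 44, promoters from RefSeq. Figures used matplotlib 3.10.9.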

Additional observations from a re-analysis of the deposited data

Results flagged for a closer look

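For 39 of the 42 genes named, the change was not equal in the cell lines, by the interaction term of the edgeR model at an adjusted p under 0.05. The same holds for 68.3% of all genes tested, and most of the other genes were named for a large change in one comparison, so the count is a description. The value is the log2 fold change in resistant A498 minus A498 less that in resistant 786-O minus 786-O, and the libraries labelled resistant A498 went against their label, as described above. Among the members it was 3.70 for INHBA, 1.33 for TGFB2, 0.60 for TGFB1 and 0.47 for TGFBR1. It was -1.65 for TGFBR3, -1.15 for TGFB3 and -0.62 for TGFBR2. With the trend of GC content and length removed, that of TGFBR1 was -0.10 (adjusted p = 0.38).

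Among the other genes named, the change was more positive in resistant A498 by 3.72 for FN1, 3.55 for BMPR1B, 3.39 for TGIF2, 3.37 for ITGB8, 2.69 for ID2, 2.50 for THBS1, 2.03 for NEDD4L, 1.88 for ACVR2B, 1.28 for SMAD4, 1.19 for BMP6, 1.19 for TAGLN, 1.08 for SMURF2, 0.97 for SMAD2, 0.95 for FURIN, 0.86 for USP15, 0.70 for CCN2, 0.63 for STRAP and 0.55 for BAMBI. It was more negative, at -9.76 for POSTN, -4.75 for LTBP1, -4.40 for COL1A1, -3.96 for GDF15, -3.33 for RHOB, -3.15 for LTBP4, -2.95 for LTBP3, -2.43 for FBN1, -2.37 for SMAD6, -1.41 for INHBB, -1.17 for LOX, -0.73 for PMEPA1, -0.60 for SMAD3 and -0.51 for MMP14. The value for POSTN depends on the prior count, since the 786-O libraries hold at most 0.0263 CPM of it.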

How the results depend on the processing

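The number of members called stayed within 1.5 times its value under every alternative but a required absolute log2 fold change over 1. That left 1 of 8 in resistant 786-O minus 786-O (TGFBR3), 3 of 9 in resistant A498 minus A498, 4 of 7 for the difference, 3 of 7 in 786-O minus A498, 1 of 8 in resistant A498 minus 786-O and 0 of 3 in resistant A498 minus resistant 786-O. In the last, 4 members had an unadjusted p under 0.05 in edgeR, the largest absolute change was 0.72, and DESeq2 also gave 0. These counts stand without the share of all genes at that threshold, so they are a description. Of the values of single members under an alternative, 1013 kept direction and call, 26 lost and 12 gained the call, and 20 changed sign.

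With the GC and length trend removed, the sign changed for TGFB1 in resistant 786-O minus 786-O (-0.03) and resistant A498 minus resistant 786-O (0.18), TGFB2 in resistant 786-O minus 786-O (0.04), TGFBR1 in the difference (-0.10), 786-O minus A498 (-0.08) and resistant A498 minus resistant 786-O (-0.02), and SMAD7 in the difference (0.37), 786-O minus A498 (0.27) and resistant A498 minus resistant 786-O (0.10). It also changed for ITGB8 (0.04) and LTBP4 (-0.57) in resistant 786-O, and for SMAD6 (0.06), SMURF2 (-0.09) and BMP6 (0.14) in resistant A498. Library size scaling gave 0.01 for TGFB2 and 0.13 for ACVR2B in resistant 786-O. Thinning gave -0.23 for TGFB3 in resistant A498 minus resistant 786-O and 0.10 for ACVR2B, no filter 0.04 for SMAD7 in 786-O minus A498, and for ACVR2B DESeq2 gave 0.01, the groups alone 0.02 and the minimum of 10 counts 0.04. The cause was not tested.

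Where leaving out 1 library changed a sign, the range was -0.22 to 0.04 for TGFB2, -0.26 to 0.02 for ITGB8 and -0.05 to 0.03 for ACVR2B in resistant 786-O. It was -0.11 to 0.11 for TGFB3, -0.40 to 0.08 for TGFBR3 and -0.12 to 0.02 for SMAD7 in resistant A498 minus resistant 786-O, and for SMAD7 -0.14 to 0.01 in the difference and -0.03 to 0.02 in 786-O minus A498.

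With a replicate block, 8, 9, 7, 7, 8 and 3 members were called in the 6 comparisons, as many as without it. Over all genes it gave 13497, 14389, 13495, 14715, 12567 and 8974 calls, against 13643, 14496, 13607, 14793, 12683 and 9180 without it. The deviations of the 18 same-numbered pairs correlated at -0.0862 to 0.0435, and those of the 36 other pairs at -0.0525 to 0.0718. No pairing by replicate number was thus seen over all genes, and a pairing limited to some genes was not tested. BMP6 in resistant A498 gained the call under the block (-0.14, adjusted p = 0.049). BMP6 there was also called lower with DESeq2 (-0.16, adjusted p = 0.046) and the compared groups alone (-0.14, adjusted p = 0.013). The same held with at least 10 counts in every library (adjusted p = 0.024) and without resistant 786-O replicate 2 (adjusted p = 0.022). With the GC and length trend removed, BMP6 was called higher instead (0.14, adjusted p = 0.036). Among the lists, those called lower for latency and activation in resistant 786-O came to 5 with no filter, and those called higher for activin and BMP relatives to 5 in resistant 786-O and 7 in resistant A498 with at least 10 counts in every library. TGFB3 and TGFBR3 rest on the fewest counts, 14 and 47 at the lowest. One selected culture per resistant label, and a batch label of each group's own, limit every comparison.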
